A study of Homo sapiens with 2 samples.

Results

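Among the genes near which the transcription factor TCF4 was bound in SU-DHL-2 lymphoma cells were 9 that serve the uptake of nutrients or the use of fuel. They were the transporter genes SLC2A3, SLC38A1, SLC7A1, SLC39A6 and UCP2 and the enzyme genes PFKM, ME2, ACAA2 and MCCC1. Members were taken by gene name from the authors' list of TCF4 peaks, which gave 9 of the 275 listed genes and 21 of the 662 listed peaks, 14 at transporter and 7 at enzyme genes. Each of the 5 transporter genes had a listed peak less than 10 kb from the start site of its assigned transcript. None of the 4 enzyme genes had one, against 38.5% of all listed genes that had. The distance of the PFKM peak to other starts of that gene was not measured. The split between the classes was not seen in the other listed genes counted here. Of these, 0 of 3 solute carriers, taken by the SLC symbol alone, and 2 of 4 enzymes of the same pathways had such a peak. The enrichment of ChIP over input was close in both classes, 5.18-fold at transporter and 4.93-fold at enzyme peaks when their reads were summed.

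SU-DHL-2 is an established human cell line of diffuse large B-cell lymphoma, of the subtype that resembles activated B cells. The series asked where TCF4 (E2-2) binds in a line of this kind that has no extra copies of the TCF4 gene. The cells carried a tetracycline-inducible TCF4 and received 60 ng/ml doxycycline for 24 hours. The antibody signal of introduced and endogenous TCF4 cannot be told apart. There was 1 library of chromatin precipitated with a TCF4 antibody and 1 library of whole-cell input DNA from cells given the same treatment. Cells without induced TCF4 were not analysed here, nor was any expression value, so the labelled cell type could not be checked against marker genes. With 1 library each, no difference has a replicate check and no test was made. Intervals are at 95% and cover counting error only.

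Per the headers the list is restricted to genes of a TCF4 signature, which the authors marked Up or Down without saying relative to what. Of the 9 genes, 8 were marked Up, against 83.3% of all listed genes, and SLC2A3 was marked Down. All listed peaks had already passed the authors' calls, with a log2 ratio of ChIP to input reads of at least 2.01, so low enrichments are missing from every median. The scaling of the deposited signal corresponds, if it is RPKM (reads per kilobase and megaread), to 93.5 M ChIP and 84.4 M input reads.

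TCF4 is a basic helix-loop-helix factor of the E-protein family and binds as a dimer to E-boxes, short sites of the form CANNTG. In the B lineage E-proteins are known for driving differentiation and immunoglobulin gene expression. Dividing lymphoma cells import glucose, amino acids and metal ions through carriers in the plasma membrane, and break down sugars, fatty acids and branched-chain amino acids to feed the tricarboxylic acid cycle in mitochondria. Solute carriers perform the first of these tasks and the enzymes named above belong to the second.

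E-boxes were looked for in the 250 bases before each start site in RefSeq, on assembly GRCh38.p14, where 8 of the 9 genes matched with 18 windows. The sequence under the peaks themselves, on build hg19, was not used here. The promoters of SLC38A1 and SLC39A6 are shown because these genes had the listed peaks nearest to a start site, and that of ACAA2 as a contrast whose peaks all lay over 44 kb from the start. Capitals mark CANNTG, each line ends at the base before the start site, and all are on the minus strand. They lie at chr12:46267988-46268237 and chr12:46266517-46266766 for the outer and inner start of SLC38A1, at chr18:36129341-36129590 for SLC39A6 and at chr18:49813534-49813783 for ACAA2.
SLC38A1 outer start: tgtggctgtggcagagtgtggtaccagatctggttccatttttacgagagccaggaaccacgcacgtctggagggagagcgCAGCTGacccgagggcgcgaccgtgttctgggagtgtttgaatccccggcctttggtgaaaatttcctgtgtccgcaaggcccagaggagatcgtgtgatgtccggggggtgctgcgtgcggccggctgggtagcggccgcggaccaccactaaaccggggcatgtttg
SLC38A1 inner start: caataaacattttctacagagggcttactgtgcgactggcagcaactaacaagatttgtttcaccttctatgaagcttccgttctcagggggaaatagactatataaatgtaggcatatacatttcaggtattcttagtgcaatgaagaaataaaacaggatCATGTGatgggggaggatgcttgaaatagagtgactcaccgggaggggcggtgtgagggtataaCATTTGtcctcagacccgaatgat
SLC39A6: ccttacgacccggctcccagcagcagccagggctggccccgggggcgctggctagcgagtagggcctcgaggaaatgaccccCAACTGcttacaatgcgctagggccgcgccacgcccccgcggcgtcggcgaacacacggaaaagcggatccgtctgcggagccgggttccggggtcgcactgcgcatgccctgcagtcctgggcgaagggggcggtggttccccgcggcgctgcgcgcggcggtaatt
ACAA2: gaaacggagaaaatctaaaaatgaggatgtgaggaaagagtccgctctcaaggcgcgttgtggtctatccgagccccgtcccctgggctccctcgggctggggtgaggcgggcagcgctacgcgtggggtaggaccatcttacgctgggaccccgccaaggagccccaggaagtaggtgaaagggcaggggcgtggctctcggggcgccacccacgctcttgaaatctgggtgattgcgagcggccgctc

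The outer SLC38A1 window held CAGCTG, an E-box form that reads the same on both strands, 169 bases before the start. The inner window held CATGTG 88 bases and CATTTG 24 bases before the start, and the SLC39A6 window held CAACTG 168 bases before it. The ACAA2 window held no CANNTG. Among the promoters not shown, the SLC7A1 window held none either, although a peak lay 5.87 kb from its start. The ME2 window and all 3 MCCC1 windows held a match, with nearest peaks at 50.3 and 40.4 kb. At UCP2, with a peak at 8.53 kb, 1 of 2 windows held a match. At PFKM 1 of 7 windows held one, the innermost, with CAATTG 138 bases before its start. The PFKM peak lay 20.1 kb from the assigned start, and its distance to the start of that window was not measured. Over the 18 windows of the 8 genes, which overlap in part, 9 held at least 1 CANNTG, against 61.8% of 35116 windows in the promoter table. PFKM alone supplied 7 of the 18. Counted by gene, 6 of the 8 had a match in at least 1 window, and no share by gene was computed for the promoter table. CAGCTG was found in 2 of the 18, once each at SLC38A1 and MCCC1, against 14% of all windows. CAGGTG, searched on both strands and so also as CACCTG, was found in 1, at UCP2, against 17.5%. All matches of the last 2 motifs are also matches of CANNTG. These are matches of letters, and no listed peak of SLC38A1, SLC39A6 or ACAA2 was centred within 250 bases of the start site it was assigned to.

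The glucose transporter gene SLC2A3 (GLUT3, chromosome 12) had 3 listed peaks, all with few reads. The peak within the gene at chr12:8080429-8080627 (hg19, as are all peak positions given) held 31 ChIP and 6 input reads. The peak 6.41 kb upstream of the start site, at chr12:8095121-8095476, held 53 ChIP and 8 input reads. The third, 31.8 kb upstream at chr12:8120536-8120765, held 37 ChIP and 8 input reads. All 3 thus lay well below the median listed peak, which held 91 ChIP reads. Their fold enrichments, the ratio of ChIP to input reads scaled by the authors' library constants, were 4.66 (interval 1.92 to 13.7), 5.98 (2.82 to 14.6) and 4.17 (1.91 to 10.4). The intervals overlap, so the 3 sites were not distinguishable in enrichment at this depth. The gene next to SLC2A3 is SLC2A14, a close copy of it, and the treatment of reads that match both is not stated in the labels or headers.

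SLC38A1 (chromosome 12) encodes SNAT1, a sodium-coupled carrier of glutamine and other small neutral amino acids, and had 6 listed peaks. As many or more were listed for 16 of the 275 genes. They spanned 208 kb, with 3 upstream of the start site, 1 within the gene and 2 past its end. The peak at chr12:46662820-46663312, 1.3 kb upstream, was the only member peak that the authors marked as a promoter peak, against 5.44% of all listed peaks. It held 137 ChIP and 19 input reads, a fold of 6.51 (4.01 to 11.1). The next, 4.15 kb upstream at chr12:46665614-46666229, held more ChIP reads, 197, but also 43 input reads, a fold of 4.14 (2.96 to 5.89). The third upstream peak, at chr12:46690743-46691309 and 29.3 kb away, held 119 ChIP and 24 input reads, a fold of 4.48 (2.87 to 7.26).

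The most enriched sites of SLC38A1 were at the other end of the gene. The peak at chr12:46569739-46570237, 6.85 kb past the transcript end and 90.3 kb from the start site, held 123 ChIP and 9 input reads. Its fold of 12.3 (6.29 to 27.6) was the highest of the 21 member peaks and ranked 20 of 662. It was the only member peak whose interval lay wholly above the median fold of all listed peaks, 5.01, and it was singled out after its value was seen. How many of the other listed peaks had such an interval was not counted. The peak within the gene at chr12:46595266-46595614 held 51 ChIP and 5 input reads, a fold of 9.21 with a wide interval of 3.7 to 29.6. The farthest peak, at chr12:46483585-46483977 and 176 kb from the start site, held 58 ChIP and 13 input reads, a fold of 4.03 (2.18 to 8.01). ChIP reads and enrichment thus put the SLC38A1 sites in different orders. Its upstream peaks had 119 to 197 ChIP reads over 19 to 43 input reads, and the 9.21-fold site had 51 over 5. Upstream distances were given to transcript NM_001278390 and the others to NM_001278389, whose starts differ.

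SLC7A1 (chromosome 13) encodes CAT1, the carrier of arginine and lysine, and its 3 listed peaks all lay within the gene. The peak at chr13:30114951-30115643, 54.5 kb from the start site, held 231 ChIP and 34 input reads, the most ChIP reads of any member peak. The peak at chr13:30147303-30147620 held 124 ChIP and 29 input reads, and the one nearest the start site, 5.87 kb away at chr13:30163753-30164165, held 140 ChIP and 26 input reads. Their folds were 6.13 (4.27 to 9.07), 3.86 (2.56 to 6) and 4.86 (3.18 to 7.7). The middle peak was the least enriched of the members, at rank 638 of 662, although its ChIP signal per length ranked 27. Its input signal ranked 4.

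SLC39A6 and UCP2 had a single listed peak each, upstream of the gene. SLC39A6 (ZIP6), which carries zinc into the cell, had a peak 2.72 kb from its start site at chr18:33711884-33712274 with 80 ChIP and 13 input reads, a fold of 5.55 (3.07 to 10.9). UCP2 (chromosome 11), a carrier of the mitochondrial inner membrane, had its peak 8.53 kb upstream at chr11:73702252-73702577. This peak held 157 ChIP and 31 input reads in only 325 bp. Its deposited ChIP signal of 5.17 was the highest of the members and ranked 11 of 662, and its input signal of 1.13 ranked 3. The fold was 4.57 (3.09 to 6.95), under the median of all listed peaks. The gene next to UCP2 on the side of this peak is its paralogue UCP3.

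**Figure D1:**
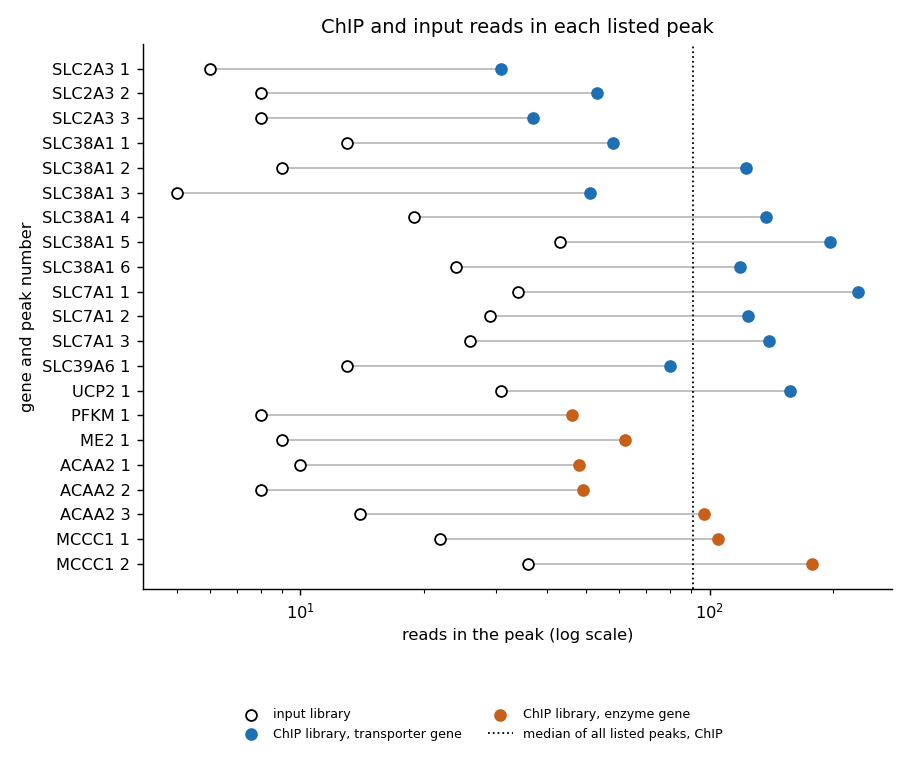
Reads in the ChIP library (filled) and in the input library (open) for each of the 21 listed peaks, on a log axis, with peaks of a gene numbered by coordinate. ChIP reads run from 31 at SLC2A3 to 231 at SLC7A1, input reads from 5 to 43, and the dotted line marks the median of 91 ChIP reads over all 662 listed peaks.

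Of the enzyme genes, PFKM (chromosome 12) encodes the muscle form of phosphofructokinase, which commits sugar to glycolysis. Its single listed peak lay within the gene, 20.1 kb from the start site at chr12:48518956-48519275, with 46 ChIP and 8 input reads. The fold was 5.19 (2.43 to 12.7). The peak's local −log10 p of 2.03, the authors' measure against its surroundings, was the lowest value in the list. Other listed peaks shared this value, and the peak ranked 643 of 662. ME2 (chromosome 18) encodes the mitochondrial malic enzyme, which turns malate into pyruvate. Its single peak, within the gene and 50.3 kb from the start site at chr18:48455516-48455911, held 62 ChIP and 9 input reads, a fold of 6.22 (3.07 to 14.2). Both genes thus rested on 1 site with fewer ChIP reads than the median listed peak. The nearest listed peak of another gene lay 177 kb from that of ME2 and was assigned to SMAD4.

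ACAA2 (chromosome 18) encodes the mitochondrial thiolase of the last step of fatty acid oxidation, and none of its 3 listed peaks touched the gene. The nearest, 14.2 kb past the transcript end and 44.6 kb from the start site at chr18:47295412-47295844, held 97 ChIP and 14 input reads, a fold of 6.25 (3.55 to 11.9). The other 2 lay 115 and 116 kb from the start site, at chr18:47224906-47225248 with 49 ChIP and 8 input reads and at chr18:47223620-47223936 with 48 ChIP and 10 input reads. Their folds were 5.53 (2.6 to 13.5) and 4.33 (2.16 to 9.6), and they were only 0.97 kb apart. The gene next to ACAA2 on that side is LIPG, an endothelial lipase gene, and the distance of these peaks to its start site was not measured.

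MCCC1 (chromosome 3) encodes the alpha subunit of methylcrotonyl-CoA carboxylase, a biotin enzyme of leucine breakdown, and had 2 listed peaks. The peak within the gene at chr3:182776701-182777159 held 178 ChIP and 36 input reads, the most of any enzyme peak, a fold of 4.46 (3.11 to 6.58). The other, 4.43 kb past the transcript end at chr3:182728360-182728783, held 105 ChIP and 22 input reads, a fold of 4.31 (2.7 to 7.17). They lay 40.4 kb and 88.5 kb from the start sites of transcripts NM_020166 and NR_120640. These were the enzyme peaks with the most ChIP reads, whereas their folds were among the 3 lowest of the 7. The gene next to the outer peak is DCUN1D1, which has a listed peak of its own 81 kb away.

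**Figure D2:**
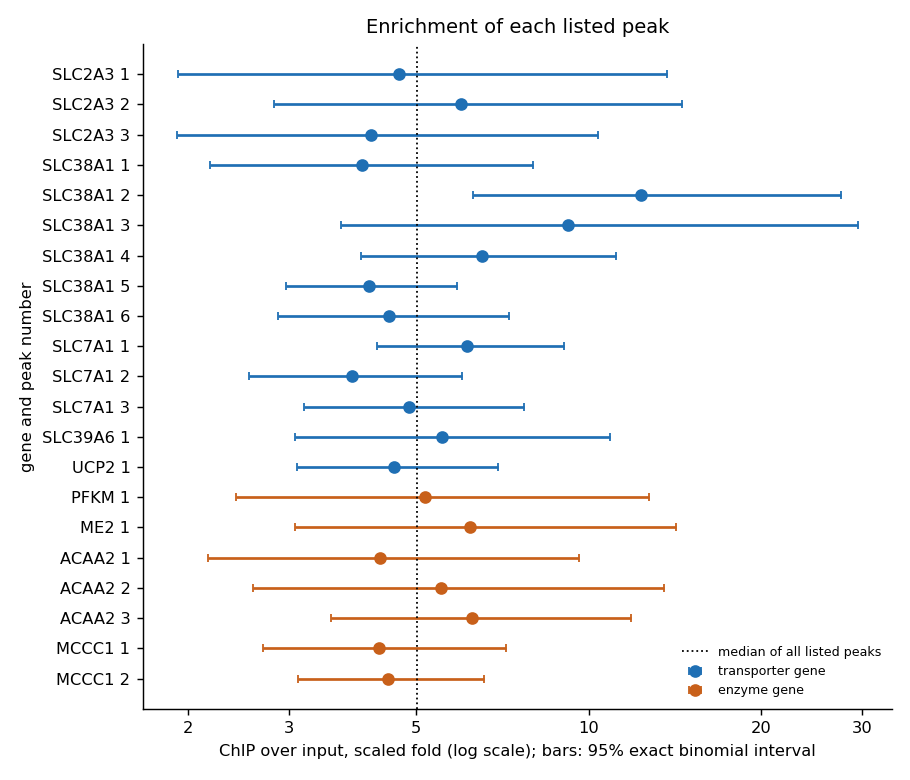
Scaled fold of ChIP over input reads for each of the 21 listed peaks on a log axis, with bars for the 95% exact binomial interval. The second SLC38A1 peak, at 12.3-fold, is the only one whose bar lies wholly to the right of the dotted median of all listed peaks, 5.01.

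Transporter and enzyme genes were compared in the number, position, reads and enrichment of their peaks. The choice of genes was made with earlier results of this table known, genes and peaks are not replicates, and the following are descriptions. Transporter genes had 1 to 6 listed peaks, a mean of 2.8, and enzyme genes 1 to 3, a mean of 1.75, beside 2.41 over all listed genes. The ranges overlap, and SLC38A1 alone held 6 of the 14 transporter peaks. Without SLC38A1, and without ACAA2 among the enzymes, the means were 2 and 1.33. Of the 9 genes, 4 had 3 or more listed peaks, against 34.5% of all listed genes, and 4 had a single one, against 38.5%.

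Among the 9 genes the classes did not overlap in how close their nearest peak came to the start site of the assigned transcript. Distances to other starts were not measured. PFKM has 7 start windows, from chr12:48105103-48105352 to chr12:48122397-48122646 on GRCh38.p14, so its distance depends on the start taken. The nearest peak lay 1.3 to 8.53 kb from the assigned start in the 5 transporter genes and 20.1 to 50.3 kb from it in the 4 enzyme genes. Over all listed genes the median of this distance was 14.3 kb, and 38.5% of them had a peak under 10 kb from the start site. In the 7 other listed genes of the pathway lists this order was not seen. The solute carriers SLC35A5, SLC25A32 and SLC1A1 had their nearest peaks at 10.5, 21.9 and 125 kb. The enzyme genes ALDOC, ECHS1, HADH and PCCB had theirs at 3.38, 6.55, 25.7 and 27.4 kb. The distance between the classes is thus a description of the 9 genes and not of transporter and enzyme genes in general. Counted over peaks, 7 of 14 transporter peaks and 0 of 7 enzyme peaks lay under 10 kb, against 17.8% of all listed peaks. The median distance was 15.4 kb (range 1.3 to 176) at transporter and 50.3 kb (range 20.1 to 116) at enzyme genes, beside 39.7 kb over all listed peaks. Over 50 kb from the start site lay 4 of 14 transporter and 4 of 7 enzyme peaks, against 42% of all.

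The side of the gene differed as well. Of the transporter peaks 7 lay upstream, 5 within the gene and 2 downstream. Of the enzyme peaks 0 lay upstream, 3 within and 4 downstream. Over all listed peaks 23.4% were upstream, 52% within and 24.6% downstream, beside 7, 8 and 6 of the 21 member peaks. The assigned transcripts were 8.17 to 86.3 kb long at transporter and 30.4 to 84.4 kb at enzyme genes.

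The classes also differed in where they lie in the genome, which cannot be told apart from their function with 9 genes. The enzyme genes ME2, ACAA2 and MCCC1 are on chromosomes 18 and 3, with 6 of the 7 enzyme peaks, whereas SLC39A6 was the only such transporter gene. In all, 4 of the 9 genes lay on these 2 chromosomes, against 35.3% of listed genes. A peak under 10 kb from the start site was listed for 32% of the genes of chromosomes 3 and 18 and for 42.1% of the others. Without these chromosomes PFKM was the only enzyme gene left, with 1 peak at 20.1 kb, and the median over the 13 transporter peaks left was 22.4 kb. The order of the median distances was then the opposite.

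**Figure D3:**
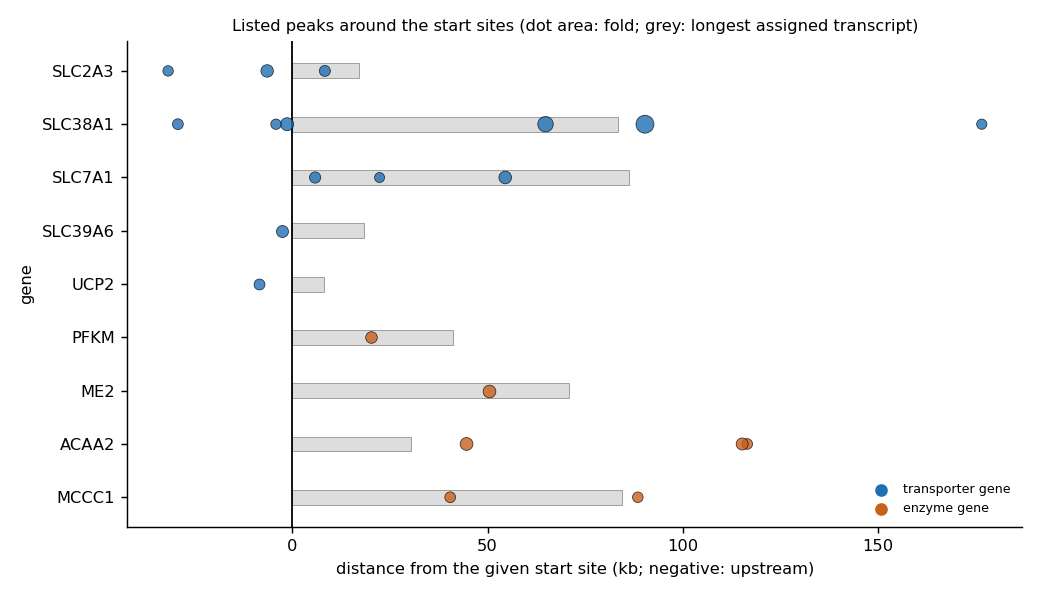
Position of each listed peak relative to the start site of its assigned transcript, in kb, with upstream negative, dot area proportional to fold and the longest assigned transcript of each gene in grey. All 7 upstream peaks belong to SLC2A3, SLC38A1, SLC39A6 and UCP2, and the 7 enzyme peaks lie at 20.1 kb or more downstream of the start.

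Reads were compared per peak and per length. The median peak held 121 ChIP reads (range 31 to 231) at transporter and 62 (range 46 to 178) at enzyme genes, beside 91 over all listed peaks. Median widths were 391 bp and 395 bp. The deposited ChIP signal, which is per length, had medians of 2.45 and 1.68, beside 2.1 over all listed peaks. All 7 enzyme peaks lay inside the range of transporter reads, and 8 of 14 transporter against 3 of 7 enzyme peaks held more ChIP reads than the median listed peak. The enzyme median depended on how the peaks were counted. With the 2 ACAA2 peaks that lie 0.97 kb apart merged, it was 97 reads, beside 121 at transporters. Without SLC38A1 and ACAA2, the genes with the most peaks, the medians were 102 and 83.5 reads. Among peaks at or above the median local −log10 p, which itself depends on reads, the medians were 140.5 over 6 transporter peaks and 141.5 over 2 enzyme peaks. Both of these enzyme peaks were those of MCCC1.

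Enrichment showed no such gap. Summed over peaks, transporter genes had 1538 ChIP and 268 input reads, 5.18-fold (4.55 to 5.92), and enzyme genes 585 and 107, 4.93-fold (4.01 to 6.12). The ratio of the 2 folds was 1.05, with an exact conditional interval of 0.814 to 1.35. Taken peak by peak, the order was the opposite, with a median fold of 4.76 (range 3.86 to 12.3) at transporter and 5.19 (range 4.31 to 6.25) at enzyme peaks. Without the 12.3-fold SLC38A1 peak the summed transporter fold was 4.93, a ratio of 0.999 to the enzymes (0.774 to 1.28). The interval of the ratio of summed folds includes 1, and the difference of the medians was not tested.

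**Figure D4:**
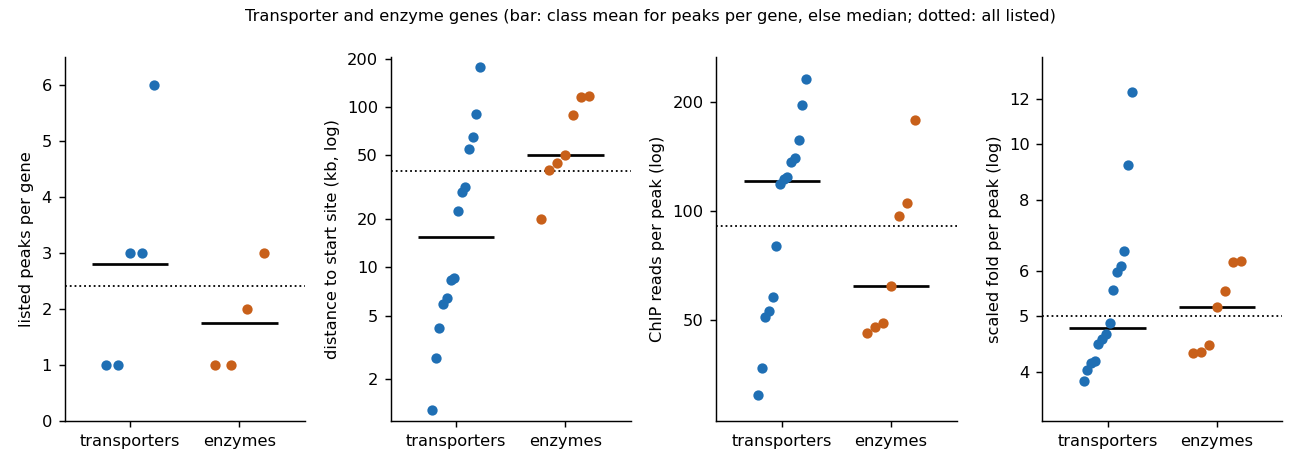
Listed peaks per gene, distance to the start site, ChIP reads and scaled fold at transporter and enzyme genes, the last 3 on log axes. Bars mark the class mean for peaks per gene (2.8 and 1.75) and the class median otherwise, and dotted lines the same over all listed genes or peaks. The distances reach down to 1.3 kb at transporters and to 20.1 kb at enzymes, and the folds overlap.

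The enrichment of the 9 genes lay near that of the rest of the list. Of their 21 peaks 10 were over 5-fold, against 50.3% of all listed peaks. For 20 the interval of the fold included the median listed fold. The intervals are wide and this count was not made over the whole list, so nothing is read from it. The summed fold of the 21 peaks was 5.11 (4.58 to 5.72), and that of the other 641 peaks 5.61 (5.5 to 5.72). The ratio was 0.911, with an interval of 0.814 to 1.02. Against their surroundings 13 of the 21 lay under the median local −log10 p of the list, 4.2, beside 323 of all 662 listed peaks. Member peaks with a high ChIP signal also tended to have a high input signal, with a Spearman correlation of 0.83 over the 21 peaks and 0.683 over all 662. All points come from the same 2 libraries, both signals are divided by the same peak width, and the list holds only peaks above a minimum ratio. Input signals above 1 were found at 6 listed peaks, of which 2 were member peaks, those of UCP2 and the middle peak of SLC7A1.

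Other genes were counted from pathway lists and, for solute carriers, by the SLC symbol alone, beside 1.34% of all protein-coding genes that had a listed peak. The counts include the members, which were chosen from the listed genes, so their shares are given with no reading. Of 386 protein-coding genes with an SLC symbol, 7 had a listed peak, namely the 4 members and SLC1A1, SLC25A32 and SLC35A5. SLC35A5 had 1 peak of 47 ChIP over 2 input reads, 21.2-fold with an interval of 5.55 to 180. SLC1A1, a carrier of glutamate and cysteine, was marked Down and had 1 peak of 5.83-fold (3.23 to 11.4), 125 kb from its start site. SLC25A32, a mitochondrial folate carrier, had 1 of 5.33-fold (2.79 to 11.2). Of 32 glycolysis genes 3 had a listed peak, PFKM, SLC2A3 and the aldolase gene ALDOC. ALDOC was marked Down like SLC2A3, and its single peak, 3.38 kb from the start site, was 4.65-fold enriched (2.86 to 7.93).

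Fatty acid oxidation had 3 of 29 genes in the list. Beside ACAA2 these were HADH and ECHS1, which encode the enzymes of the steps that precede the thiolase. The 3 genes were marked Up, as were 83.3% of all listed genes. The single ECHS1 peak held 206 ChIP and 21 input reads, 8.85-fold (5.64 to 14.6), and lay 6.55 kb from the start site. HADH had 3 peaks, the strongest 8.96-fold (5.06 to 17.3) and 53.4 kb from the start site. The strongest ACAA2 peak, at 6.25-fold, has an interval that overlaps both. Branched-chain amino acid breakdown had 2 of 21 genes, MCCC1 and PCCB, another biotin-dependent carboxylase gene of chromosome 3, with 3 peaks of up to 5.91-fold (3.68 to 10.0). The list of the tricarboxylic acid cycle and its feeders had 1 of 34 genes, ME2. The list of mitochondrial carriers had 1 of 16, UCP2, and it does not include the SLC25A32 named above. Of 19 energy regulators such as AMPK subunits 0 were listed. The list is limited to signature genes, so a gene without a row may still be bound.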

How the data were processed

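ChIP and input libraries from SU-DHL-2 cells were compared in 1 deposited peak table. Per the submitters' processing notes, BWA and GATK were used and the build was hg19. No version is given, and no label or header names the peak caller. The authors deposited read counts of each peak in the ChIP library and in a column headed IC, taken here as input, the only other library. The deposited log2 ratio equalled that of the counts with 1 read added to each, and the deposited scaled log2 ratio was 0.15 lower in every peak. The authors' deposited signal was the read density of a peak over a constant of each library. The deposited −log10 p-values are the peak caller's, and the one against a read distribution was infinite from 100 ChIP reads, so it was not used. Distances, positions and promoter marks are the authors' annotation. Whether coordinates count from 0 or 1 is not stated.

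Folds are ChIP over input reads scaled by the ratio of the 2 constants, 0.903, with exact binomial (Clopper-Pearson) intervals. The intervals were tested on simulated counts that, unlike the listed peaks, were not selected on their ratio. Their coverage for peaks selected in this way was not tested. The ratio of 2 folds carries the exact conditional interval of an odds ratio. Reads are not independent molecules. With 1 library per group no test was made. UCP2 was counted as a transporter. Accessions of all 21 member peaks belonged to the named gene in RefSeq, whose GRCh38.p14 table also gave neighbouring genes. All 9 members were named, and other genes where they were on the pathway lists. Members and lists were chosen with earlier results of these data known. Values were computed with scipy 1.17.1, numpy 2.4.6 and pandas 2.3.3 under Python 3.11.15.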

Additional observations from a re-analysis of the deposited data

How the results depend on the processing

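No paired analysis was possible because each group has 1 library. Of 52 alternative values for the class comparisons 49 stayed within the interval of the main value, or within 1.5 times for peaks per gene. The exceptions were peaks per gene, which fell to 1.2 at transporters and 0.5 at enzymes when only the stronger 50% of listed peaks by local p counted. For enzymes it was 1 without chromosomes 3 and 18. The values for the stronger 50% follow from counting fewer peaks over the same genes. The enzyme value of 1 is that of PFKM, the only enzyme gene left, with 1 listed peak. Intervals of medians over 7 or 14 peaks are wide, so staying inside them says little. For enzymes the interval of a median is the full range of the 7 peaks, and a median over part of them could not leave it. With UCP2 counted with the enzymes the median distances were 22.4 and 47.5 kb. The split at 10 kb then no longer held, because the UCP2 peak lay 8.53 kb from its start site. Without scaling the summed folds were 5.74 and 5.47. Leaving UCP2 out and adding 1 read were chosen after seeing the data. All 42 alternative values of single-peak folds stayed within their intervals. These intervals are much wider than the changes made, so this outcome was fixed in advance. Input counts of 5 to 43 reads per peak limit the precision of every fold.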
